A study of Mus musculus with 10 samples.

Results

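This is a description of 8 genes through which cells sense insulin, leptin, glucose and related signals of the body's energy state: Insr, Insrr, Igf1r, Slc2a2, Lepr, Glp1r, Ghsr and Mc4r. They were chosen by symbol, as 8 of the 33502 genes counted in 20503 nuclei, and their unique molecular identifiers (UMIs, each standing for 1 captured RNA molecule) were summed per library and cell type. Neurons were split further by markers of the thalamic regions (C1ql3, Adarb2, Gad2, Nwd2) and of subtypes of the paraventricular thalamus, or PVT (Col12a1, Cadps2, Npsr1).

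The PVT is a midline thalamic nucleus that receives input on hunger, arousal and stress and projects to the accumbens and the amygdala. Nuclei came from punches of the PVT and the tissue around it, taken at 12 weeks of age from mice of the strain C57BL/6J, and no treatment was named. There were 10 single-nucleus libraries, 6 labelled female and 4 whose titles give no sex and whose nuclei the deposited annotation calls male; these are called the male libraries here. The methods describe 4 mice pooled into each of 4 samples, and the number of mice behind each female library is not stated in the sources used here.

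Insulin and the insulin-like growth factors act through receptor tyrosine kinases: Insr binds insulin, Igf1r binds IGF1 and IGF2, and Insrr, their relative, binds neither hormone and responds to alkaline pH. Both hormone receptors signal through the IRS adaptors, PI3-kinase and AKT. Leptin from fat tissue acts through Lepr and the JAK2 and STAT3 proteins, GLP-1 from the gut and hindbrain acts through Glp1r, ghrelin from the stomach through Ghsr, and the melanocortins through Mc4r. Slc2a2 encodes GLUT2, a glucose transporter of low affinity known from liver, pancreatic beta cells and glucose-sensing neurons.

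The female libraries held 1049 to 1615 nuclei and 5119927 to 12891409 UMIs, and the male libraries 875 to 7213 nuclei and 7568267 to 55956635 UMIs. Mitochondrial genes had 562659 UMIs in the female libraries and 0 in the male ones, and 1555 genes with at least 50 UMIs in the male libraries had 0 in the female ones (509 the other way round), so sex, depth and gene annotation cannot be told apart. Of the nuclei, 10410 were neurons and 5302 astrocytes, and the rarest types were 215 endothelial cells and 179 fibroblasts. Each of 24 cell type markers was highest in the type it marks. In all, 46 cell barcodes occurred in 2 libraries each.

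The 8 genes were counted at very different depths. Igf1r had 47879 UMIs, Insr 19784, Insrr 1238, Slc2a2 1026 and Lepr 647, while Glp1r had 57, Ghsr 9 and Mc4r 6. The counts limit what can be said of the last 3 to where their few UMIs lay.

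Levels are given as counts per 1000000 UMIs (CPM) of a summed class within a library, as the mean ± SD over libraries with at least 10 nuclei of that class. Where nuclei of all libraries were pooled, the level is called a pooled CPM. Log2 fold changes set each class against the mean of the other classes, from edgeR's quasi-likelihood test with the library as a block and Benjamini-Hochberg adjustment over all genes tested. A call of higher or lower needed an adjusted p below 0.05 together with a change of more than 0.5 on the log2 scale. UMIs from free RNA can lie in any nucleus, so shares of nuclei with Insrr or Lepr are given beside those of a type low in the gene. That type was chosen from these same data.

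Among the cell types, the receptors for insulin and IGF1 were highest in endothelial cells, the lining of the blood vessels. Igf1r was 3.07 higher on the log2 scale there and Insr 1.63 higher. Of the 8 genes only these 2 had enough counts to enter the test of cell types, which covered 9842 genes. Insrr, Slc2a2, Lepr and Glp1r had most of their UMIs in neurons, but neurons held most UMIs of all genes too (126344945). In pooled CPM, neurons were at 9.62 in Insrr against 7.79 in all nuclei, at 7.30 against 6.46 in Slc2a2 and at 4.57 against 4.07 in Lepr. Lepr had its highest levels in fibroblasts and endothelial cells.

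The Igf1r locus is at chr7:67952827-68233668 (mm10, plus strand). In endothelial cells its level was 1969, 2750, 2378 and 2131 CPM in female replicates 1, 4, 5 and 6 and 3455, 2011 and 2881 CPM in male replicates 1, 3 and 4. All 7 lay above every library of every other type, where the highest value was 607 CPM. The mean was 2511 ± 546 CPM (SD, n = 7) against 359.8 ± 61.7 CPM (n = 10) in neurons, the next type, and the log2 fold change was 3.07 (SE 0.09, adjusted p = 2.9e-42). Among all genes tested, 17.4% were called higher in endothelial cells.

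The remaining types lay close together in Igf1r. Astrocytes had 331 ± 105 CPM, ependymal cells 329 ± 114 CPM, oligodendrocytes 299 ± 108 CPM, microglia 259.9 ± 65.8 CPM, fibroblasts 257 ± 77.9 CPM and oligodendrocyte precursor cells (OPCs) 244 ± 67.9 CPM. Igf1r was called lower in microglia (-0.68, SE 0.10, adjusted p = 4.5e-08), in OPCs (-0.68, SE 0.11, adjusted p = 3.2e-07) and in fibroblasts (-0.58, SE 0.13, adjusted p = 6.2e-04). These calls stand beside 29% of all genes called lower in microglia, 13.3% in OPCs and 11.5% in fibroblasts. The endothelial level is part of the mean that each of them is set against. Between neighbours in the order of levels, an exact two-sided sign-flip permutation test over libraries gave 2134 ± 492 CPM more in endothelial cells than in neurons, in 7 of 7 libraries (p = 0.0156, the smallest it can give, adjusted p = 0.109), and no other neighbours differed beyond their spread (adjusted p of at least 0.185).

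The Insr locus is at chr8:3122061-3279617 (mm10, minus strand). In endothelial cells Insr had 362, 598, 443 and 255 CPM in female replicates 1, 4, 5 and 6 and 563, 389 and 565 CPM in male replicates 1, 3 and 4. Endothelial cells were above every other type of the same library in 7 of 7 libraries, and in 6 of 7 above every library of every other type, whose highest value was 279 CPM. The mean was 454 ± 127 CPM (SD, n = 7) and the log2 fold change 1.63 (SE 0.10, adjusted p = 5.8e-23).

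Microglia followed with 190 ± 38.4 CPM of Insr, then astrocytes with 165 ± 42.5, oligodendrocytes with 156 ± 46.6, OPCs with 153 ± 35.2, neurons with 139.6 ± 26.7, ependymal cells with 115 ± 39.0 and fibroblasts with 96.6 ± 42.0 CPM. Insr was called lower in ependymal cells (-0.61, SE 0.10, adjusted p = 6.3e-07) and in fibroblasts (-0.78, SE 0.16, adjusted p = 2.1e-04). Of all genes, 19.2% were called lower in ependymal cells. Neighbours in this order differed by the exact two-sided permutation test between endothelial cells and microglia (p = 0.0156, adjusted p = 0.041), between microglia and astrocytes (p = 0.00586, adjusted p = 0.041), between OPCs and neurons (p = 0.0234, adjusted p = 0.041) and between neurons and ependymal cells (p = 0.0195, adjusted p = 0.041). Astrocytes and oligodendrocytes, oligodendrocytes and OPCs, and ependymal cells and fibroblasts did not differ beyond their spread.

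The endothelial difference was also seen per nucleus. After each nucleus was thinned to 2000 UMIs, 95.03 ± 4.25% of endothelial nuclei had an Igf1r UMI and 59.8 ± 7.72% an Insr UMI (100 nuclei of 6 libraries that were deep enough). In neurons thinned in the same way the shares were 37.9 ± 3.44% for Igf1r and 18.8 ± 2.38% for Insr (10213 nuclei). Without thinning they were 88.02 ± 8.49% and 62.8 ± 21.3% in endothelial cells and 78.1 ± 10.3% and 59.7 ± 15.9% in neurons, which are deeper.

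**Figure D1:**
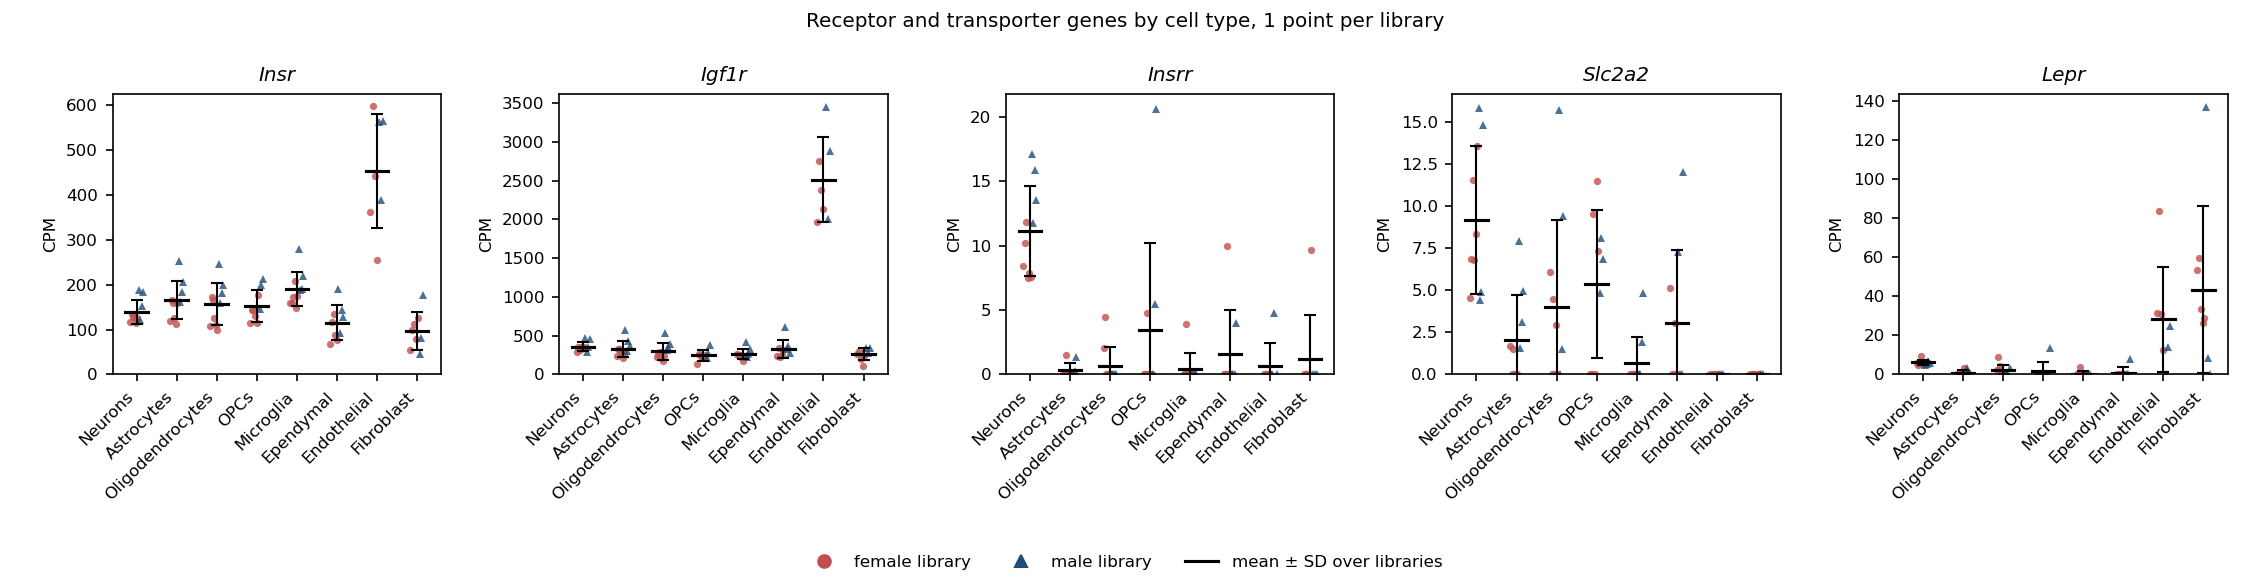
Levels of Insr, Igf1r, Insrr, Slc2a2 and Lepr (CPM, vertical axes) in the 8 cell types (horizontal axes), with 1 point per library (red circles female, blue triangles male) and the mean ± SD. Endothelial cells lay at 1969 to 3455 CPM in Igf1r, above all other libraries, Insrr was at 7.50 to 17.1 CPM in neurons, and Lepr in fibroblasts ranged from 0 to 137 CPM.

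Insrr was found in neurons. Its 1238 UMIs included 1215 from neurons, where it had a lowest, median and highest level of 7.50, 10.99 and 17.1 CPM. No other type held more than 9 of its UMIs. In thinned nuclei, 1.70 ± 0.32% of neurons and 0.0623% of astrocytes had an Insrr UMI, and 6.94% of neurons did without thinning.

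Insrr lies at chr3:87796951-87816101 (mm10, plus strand), and all of its 19151 bp lie within Pear1 on the opposite strand. Pear1 encodes a receptor of platelets and endothelial cells. The sources used here do not say whether strand entered the counting. The part of Pear1 reads in the Insrr counts was not tested. In endothelial cells Pear1 had 43 UMIs and Insrr 1, while in the authors' cluster Neurons (4), where Insrr was highest, Pear1 had 231 UMIs. In the 3 neuron clusters with most Insrr UMIs, Pear1 had the same order, with 99 in Neurons (2) and 36 in Neurons (1).

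Slc2a2, at chr3:28697903-28731359 (mm10, plus strand), had 922 of its 1026 UMIs in neurons, spread over 773 nuclei. The lowest, median and highest neuronal levels were 4.42, 7.61 and 15.9 CPM. OPCs had 5.36 ± 4.41 CPM, which did not differ beyond its spread from neurons (9.18 ± 4.42 CPM, exact permutation test, adjusted p = 0.26). In endothelial cells Slc2a2 had 0 UMIs of 728284, which allows a pooled CPM of up to 4.12, and it was also at 0 in fibroblasts, which allows a pooled CPM of up to 5.92. The gene 1700112D23Rik overlaps 28693 bp of Slc2a2 on the opposite strand. It had a pooled CPM of 13.4 in neurons beside 7.30 for Slc2a2. The part of 1700112D23Rik reads in the Slc2a2 counts was not tested.

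Lepr, at chr4:101717404-101815352 (mm10, plus strand), had its highest levels outside the neurons. In fibroblasts it had 53.7, 59.7, 33.4, 26.4 and 28.9 CPM in female replicates 1 to 5 and 137, 8.19 and 0 CPM in male replicates 2 to 4. These values rest on 20 UMIs. Over all fibroblasts, 21 UMIs in 15 of 179 nuclei gave a pooled CPM of 41.5 with an exact Poisson 95% interval of 25.7 to 63.4, which covers counting error only. In endothelial cells 19 UMIs in 15 of 215 nuclei gave a pooled CPM of 26.1 (15.7 to 40.7), against 4.57 in neurons. Neurons held 578 of the 647 UMIs, at 4.58, 5.96 and 9.64 CPM (lowest, median and highest library).

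Lepr did not pass the filter on low counts. Without that filter it was called higher in fibroblasts (4.02, SE 0.50, adjusted p = 1.1e-11) and in endothelial cells (3.57, SE 0.51, adjusted p = 1.1e-09), beside 5.5% and 7.35% of the 28845 genes then tested. By the exact permutation test the paired levels of fibroblasts and endothelial cells did not differ beyond their spread (adjusted p = 0.711), nor did those of endothelial cells and neurons, which were higher in endothelial cells in 6 of 7 libraries (adjusted p = 0.109). In nuclei thinned to 2000 UMIs, 6.50 ± 3.73% of endothelial cells, 1.01 ± 0.31% of neurons and 0.0317% of microglia had a Lepr UMI, and without thinning 9.67%, 4.15% and 0.122% did.

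Glp1r, at chr17:30901817-30940791 (mm10, plus strand), had 55 of 57 UMIs in neurons, in 37 nuclei from 7 libraries. Ghsr, at chr3:27371351-27378010, had 8 of 9 UMIs in neurons, and Mc4r had 5 of 6. Neurons also held most UMIs of all genes. At this depth no difference between cell types was detectable for Ghsr and Mc4r.

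Of 28 insulin and IGF signalling genes tested, 8 were called higher and 5 lower in endothelial cells, with a median log2 fold change of 0.05 beside -0.26 over all genes, of which 17.4% were called higher and 22.9% lower. Grb14, an adaptor that inhibits the insulin receptor, was higher (2.28, 326 ± 156 CPM), and Irs1, an adaptor that relays its signal, was lower (-2.24, 13.3 ± 9.51 CPM). Of 7 genes of glucose uptake and sensing, 2 were called higher: Slc2a1, the glucose transporter of the blood-brain barrier (4.62, 904 ± 169 CPM), and Ucp2, a mitochondrial carrier (3.51). Of 6 leptin signalling genes, Leprot, which controls receptor traffic (1.28), and the kinase Jak2 (0.51) were higher, and the phosphatase Ptpn2 was lower (-1.25). Of 6 other receptor genes, 3 were called higher, led by Ramp2, a partner of the calcitonin receptor-like receptor (6.66), and 2 lower.

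In neurons the same lists gave 5 higher and 7 lower among the insulin and IGF genes, with Grb10, another inhibitory adaptor, at 2.83 and the transcription factor Foxo1 at -2.69, where 34.8% of all genes were called higher and 23.4% lower. Of the glucose genes, 3 were called higher and 2 lower: Slc2a3, the neuronal glucose transporter, was at 2.41 and Slc2a1 at -2.84. In microglia 9 insulin and IGF genes were higher and 9 lower, led by Inpp5d, a phosphatase of blood cells (8.45), and the hexokinase Hk2 was at 7.64 (21.3% of all genes were called higher). In fibroblasts 9 were higher and 2 lower, led by the IGF-binding protein genes Igfbp2 (4.51) and Igfbp5 (2.99), beside 10.7% of all genes called higher.

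Across 14 cell types and neuron groups, the 3 genes whose mean levels ran most like Igf1r were Slfn3 (Pearson r = 0.962), Rtp3 (0.961) and Gm13861 (0.961). Those most like Insr were Gvin1 (0.954), Gm35572 (0.952) and Gch1 (0.950), the last an enzyme of tetrahydrobiopterin synthesis. All 6 had their highest level in endothelial cells, at 13.2 to 109 CPM, and the 14 classes come from the same 10 libraries.

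Neurons were then split by regional markers. A neuron joined a marker's group where that marker had at least 2 UMIs and led the others clearly, and 5326 of the neurons with over 1000 genes, or 51.7%, joined none. The C1ql3 group, with the marker of the PVT, had 2684 nuclei, the Adarb2 group 1279, the Nwd2 group 719 and the Gad2 group 299. These groups differed in Igf1r and in Insrr and did not differ in Insr beyond the limits of the test, which covered 11104 genes and 3 of the 8 genes described here.

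The labels of the groups held with an exception. The C1ql3 group had C1ql3 at a pooled CPM of 489 and Gad2 at 0.15, and the Nwd2 group had the habenular genes Tac2 at 834 and Pou4f1 at 94.0. The Gad2 group had Gad2, an enzyme of GABA synthesis, at a pooled CPM of 254, but also C1ql3 at 177. Of its 299 nuclei, 122 came from the authors' cluster Neurons (5), 70 from Neurons (4), 42 from Neurons (1) and 41 from Neurons (2). The group is named here by its marker only.

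Igf1r was highest in the Adarb2 group. Its lowest, median and highest library had 329.7, 441 and 583 CPM there, 201, 225 and 288 CPM in the C1ql3 group and 85.1, 176 and 340.1 CPM in the Nwd2 group. The Adarb2 libraries lay above all C1ql3 libraries, and the lowest of them overlapped the highest Nwd2 library. The mean in the Adarb2 group was 445 ± 71.4 CPM and the log2 fold change 0.96 (SE 0.07, adjusted p = 1.7e-15), beside 14.8% of all genes called higher. It exceeded the Gad2 group (261 ± 55.6 CPM), the next in order, in 8 of 8 libraries (exact two-sided permutation test, p = 0.0078, the smallest it can give, adjusted p = 0.023). The C1ql3 group was at -0.30 and the Nwd2 group at -0.49, under the limit of fold change.

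Insrr separated the groups the other way. In the C1ql3 group the lowest, median and highest library had 7.55, 10.4 and 16.5 CPM, while the Adarb2 group had 0.218 ± 0.381 CPM from 6 UMIs and the Nwd2 group 1.47 ± 2.04 CPM from 10 UMIs. The C1ql3 group was above the Nwd2 group in 10 of 10 libraries, by 9.83 ± 3.18 CPM (exact two-sided permutation test, p = 0.00195, the smallest it can give, adjusted p = 0.0059). Insrr was called higher in the C1ql3 group (2.30, SE 0.23, adjusted p = 2.6e-11, beside 13% of all genes) and lower in the Adarb2 group (-3.99, SE 0.46, adjusted p = 6.1e-10, beside 16.1%) and in the Nwd2 group (-1.48, SE 0.51, adjusted p = 0.011, beside 21.5%). The last of these calls was lost without male replicate 3 (adjusted p = 0.118) or male replicate 4 (adjusted p = 0.052). Insrr passed the filter on low counts only through the C1ql3 and Gad2 groups, where it was high. Its calls in the marker groups are thus no independent support.

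The Gad2 group also carried Insrr, at 17.96 ± 9.42 CPM (lowest, median and highest 0, 20.7 and 30.0 CPM, n = 8, 76 UMIs). It was called higher there (3.17, SE 0.31, adjusted p = 5.4e-11, beside 10.5% of all genes). The call was lost when neurons were grouped by clusters made without the 8 genes. The Gad2-led cluster had 2.49 ± 2.23 CPM (-0.024, SE 0.68, adjusted p = 0.99). The C1ql3-led clusters had 13.8 ± 3.59 CPM (2.81, beside 12.8% of all genes called higher). The marker-gated Gad2 group also held Cadps2, a marker of a PVT subtype, at a pooled CPM of 554 (the Nwd2 group held it at 1378), and the part of such nuclei in its Insrr value was not tested.

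Insr was nearly level, at 117 CPM in the Gad2 group, 111 in the C1ql3 group, 106 in the Nwd2 group and 105 in the Adarb2 group. Slc2a2 lay between 4.67 ± 3.89 CPM (Nwd2) and 9.66 ± 7.81 CPM (Gad2), and Lepr between 2.46 ± 3.11 CPM (Gad2) and 4.88 ± 4.99 CPM (Nwd2). Neither gene passed the filter on low counts, and the spreads overlap in all 4 groups.

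**Figure D2:**
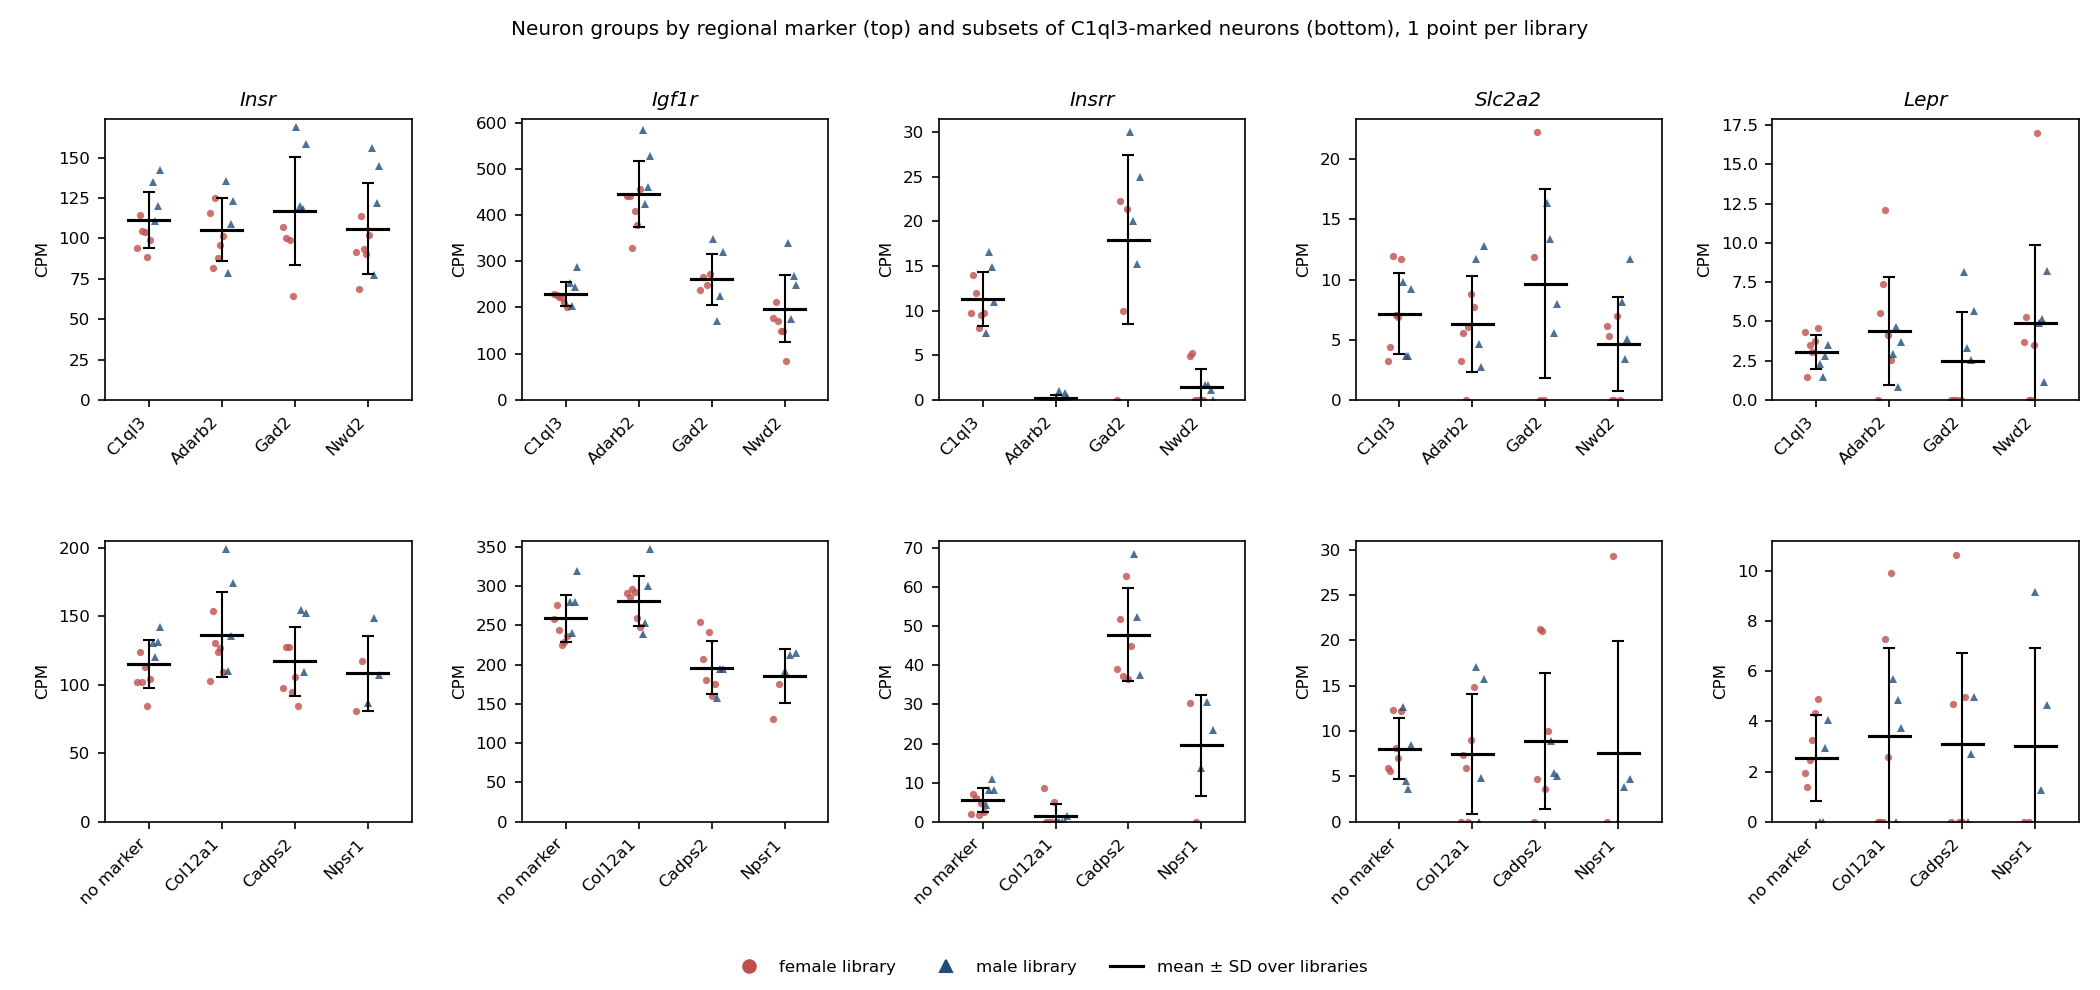
Levels (CPM, vertical axes) of 5 genes in the 4 regional marker groups of neurons (top) and in the subsets of C1ql3-marked neurons (bottom), with 1 point per library (red circles female, blue triangles male) and the mean ± SD. Igf1r was highest in the Adarb2 group at 445 CPM, and Insrr ranged from 1.52 CPM in the Col12a1 subset to 47.8 CPM in the Cadps2 subset.

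The lists of glucose and insulin genes were counted in the same groups. In the C1ql3 group, 3 of 7 glucose genes were called higher and none lower, beside 13% of all genes called higher, with a median of 0.47 beside -0.01 over all genes, among them Gckr (0.94) and Slc2a3 (0.67). Gckr was higher still in the Adarb2 group (2.69, 54.6 ± 6.94 CPM), where Abcc8, a subunit of the ATP-sensitive potassium channel, was also higher (1.69). In the Nwd2 group 5 of 7 were lower and none higher, beside 21.5% of all genes called lower, with a median of -1.36 beside 0.06.

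Igf1, a ligand of Igf1r, was higher in both the C1ql3 group (1.67, 40.2 ± 12.1 CPM) and the Adarb2 group (1.92, 46.9 ± 9.82 CPM) and lower in the Nwd2 group (-4.13). Of 27 insulin and IGF signalling genes, 3 were higher and none lower in the C1ql3 group (Pik3cb, Igfbp5 and Irs1, at 0.96 to 1.15), a share near the 13% of all genes. There were 6 higher and 1 lower (Grb10, -0.95) in the Adarb2 group, beside 14.8% and 16.1% of all genes, and 4 higher and 6 lower in the Nwd2 group, where 22% of all genes were called higher. Mrap2, an accessory protein of melanocortin receptors, was higher in the C1ql3 group (1.75) and lower in the Adarb2 group (-0.97).

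Within the C1ql3-marked neurons, the subsets were those with Cadps2 (315 nuclei), Npsr1 (133 nuclei), Col12a1 (439 nuclei) and none of these markers (1533 nuclei), and 264 nuclei were not assigned. Insrr differed most between them, and the other members tested, Igf1r and Insr, stayed within the limit of fold change. The test covered 7447 genes.

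In the Cadps2 subset Insrr had 39.0, 51.8, 37.3, 62.9, 36.5 and 44.9 CPM in female replicates 1 to 6 and 68.4, 52.3 and 37.4 CPM in male replicates 2 to 4. In the Col12a1 subset it was at 0 in 7 libraries and at 8.56, 5.17 and 1.496 CPM in female replicates 1 and 5 and male replicate 4. Every Cadps2 library lay above every Col12a1 library and above every library of the neurons with no marker, whose lowest, median and highest values were 1.63, 5.53 and 10.9 CPM. The mean was 47.8 ± 11.9 CPM (n = 9, 163 UMIs) in the Cadps2 subset, where the log2 fold change was 2.94 (SE 0.24, adjusted p = 1.1e-16), and 1.52 ± 2.96 CPM (n = 10, 7 UMIs) in the Col12a1 subset (-3.79, SE 0.41, adjusted p = 5.3e-12). Beside these calls, 7.16% of all genes were called higher in the Cadps2 subset and 5.8% lower in the Col12a1 subset. Without male replicate 3, Insrr did not pass the filter on low counts and these subset calls could not be made. With all libraries, Insrr passed that filter only through the sums of the Cadps2 subset, where it was high. The paper had also picked Insrr as a marker of its PVT3 subtype. The subset calls of Insrr are thus no independent support for the difference.

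The Npsr1 subset, counted in 5 libraries, had 30.3 and 0 CPM of Insrr in female replicates 5 and 6 and 13.7, 30.6 and 23.3 CPM in male replicates 2 to 4. It was called higher (1.47, SE 0.37, adjusted p = 0.0046, beside 3.2% of all genes), from 35 UMIs. Its nuclei also carried Cadps2, at a pooled CPM of 441, and the part of those transcripts in its Insrr level was not tested. The Cadps2 subset was above the Npsr1 subset in 5 of 5 libraries (exact two-sided permutation test, p = 0.0625, the smallest it can give, adjusted p = 0.094).

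Per nucleus, 32.7% of the Cadps2 subset had an Insrr UMI, 19.6% of the Npsr1 subset, 5.37% of those with no marker and 1.34% of the Col12a1 subset. Thinned to 2000 UMIs, the shares were 8.85 ± 2.85%, 3.69 ± 2.48%, 1.10 ± 0.56% and 0.179 ± 0.304%, in the same order. The share with thinning in astrocytes, given above, was below all of these.

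Igf1r was lower in the Cadps2 and Npsr1 subsets than in the Col12a1 subset and the neurons with no marker. It was highest in the Col12a1 subset (281 ± 32.0 CPM), then in neurons with no marker (259 ± 29.5 CPM), the Cadps2 subset (196 ± 33.4 CPM) and the Npsr1 subset (185 ± 34.2 CPM). The log2 fold changes of 0.43, 0.26, -0.38 and -0.31 each had an adjusted p under 0.05 (2.1e-07, 5.2e-04, 6.1e-05 and 0.042) and lay under the limit of fold change. By the exact permutation test the neurons with no marker exceeded the Cadps2 subset in 8 of 9 libraries (adjusted p = 0.035). Insr was at 108 to 137 CPM, Slc2a2 at 7.5 to 8.9 CPM and Lepr at 2.5 to 3.4 CPM in the 4 subsets.

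In the Cadps2 and Col12a1 subsets, few genes of the insulin and IGF list were called, in shares near those over all genes. Of 21 insulin and IGF signalling genes, 2 were lower and none higher in the Cadps2 subset, and the same 2 were higher in the Col12a1 subset: Igfbp5, an IGF-binding protein (-1.32 and 1.09, at 40.5 ± 16.01 and 120 ± 41.8 CPM), and Grb14 (-1.23 and 0.90, at 44.5 ± 15.2 and 129 ± 16.3 CPM). The ligand Igf1 was at 83.1 ± 20.4 CPM in the Col12a1 subset (2.97, SE 0.18), at 45.8 ± 11.7 CPM in neurons with no marker and at 0.757 ± 1.36 CPM, from 3 UMIs, in the Cadps2 subset. Of 4 other receptor genes tested, 1 was higher and 3 lower in the Cadps2 subset, and 2 were higher and 1 lower in the Col12a1 subset. Of 4 glucose genes, 1 was higher and 1 lower in the Cadps2 subset, and 1 was lower in the Col12a1 subset. Of 5 leptin signalling genes, 1 was higher in the Cadps2 subset. Of all genes, 7.16% were called higher and 7.98% lower in the Cadps2 subset, and 6.85% higher and 5.8% lower in the Col12a1 subset. In the Npsr1 subset no gene of the insulin and IGF, leptin or glucose lists was called.

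**Figure D3:**
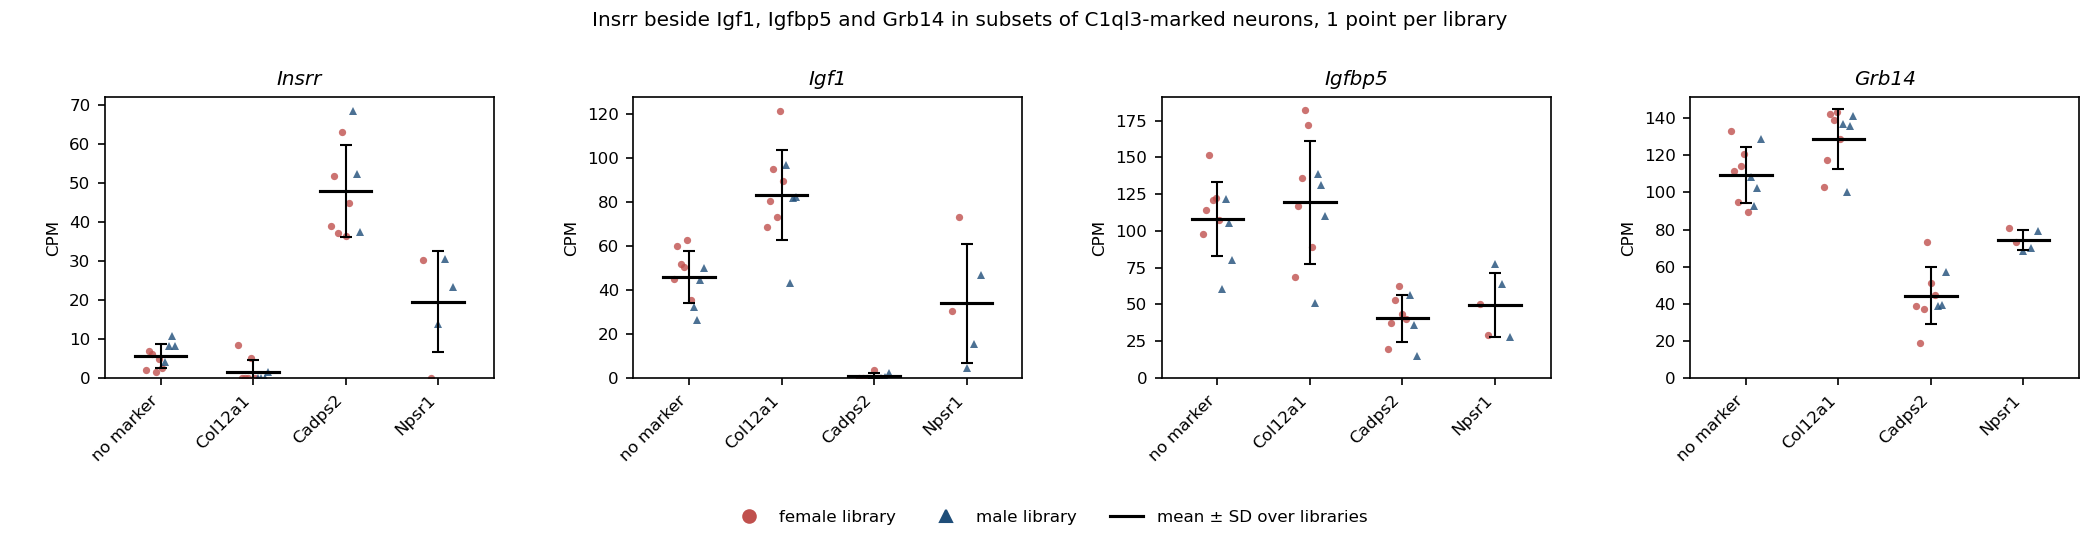
Levels (CPM, vertical axes) of Insrr, Igf1, Igfbp5 and Grb14 in the 4 subsets of C1ql3-marked neurons, with 1 point per library (red circles female, blue triangles male) and the mean ± SD. Insrr was highest in the Cadps2 subset, at 47.8 CPM, and Igf1, Igfbp5 and Grb14 in the Col12a1 subset, at 83.1, 120 and 129 CPM.

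The authors' own neuron clusters give the same genes without the marker rule. They were made from the same counts, so these levels are a description with no test. Insrr was highest in Neurons (4), at 35.3, 47.2 and 79.3 CPM (lowest, median and highest), in 10 of 10 libraries, with 683 UMIs in 417 of 1064 nuclei. Neurons (2) followed with 8.11, 16.1 and 29.1 CPM, and no other cluster had a mean above 3.30 CPM. Igf1r was highest in Neurons (3) (519 ± 67.3 CPM) and Neurons (8) (441 ± 74.2 CPM) and lowest in Neurons (2) (196 CPM) and Neurons (4) (197 CPM). Insr varied little, from 110.0 to 129 CPM.

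Lepr stood out in Neurons (5). Of the 946 nuclei of this cluster, 122 joined the marker-gated Gad2 group, more than from any other cluster. The level of Lepr in Neurons (5) was 0, 14.4 and 41.3 CPM in the lowest, median and highest library. The cluster was the highest of the neuron clusters in 8 of 10 libraries. In all, 105 of its 946 nuclei (11.1%) had a Lepr UMI, 31 of them at least 2, against 2.73 to 5.08% of nuclei in the other clusters. When neurons were grouped by clusters made without the 8 genes, Lepr passed the filter. It was called higher in the Gad2-led cluster (16.99 ± 11.9 CPM, 2.34, SE 0.23, adjusted p = 1.7e-11, beside 13.4% of all genes). Lepr passed mostly through the sums of that cluster. The clusters come from the same counts, so the call is no independent support. Lepr was called lower in the C1ql3-led clusters (2.98 ± 0.81 CPM, -1.26, adjusted p = 7.2e-06, beside 9.05%) and the Adarb2-led ones (4.44 ± 1.91 CPM, -0.56, adjusted p = 0.039, beside 16.2%). The Gad2-led level is part of the mean that both are set against. The Adarb2-led level was above the C1ql3-led one and near the Nwd2-led one (5.42 ± 4.34 CPM). The marker-gated Gad2 group, by contrast, had the lowest mean Lepr of the marker groups. There Lepr was at 0 CPM in female replicates 1, 2, 3 and 5 and at 8.17, 3.33, 2.54 and 5.67 CPM in male replicates 1 to 4.

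Neurons (5) held nuclei with and without Gad2: a Gad2 UMI was found in 10 of the 105 nuclei with Lepr and in 196 of the 841 without. Nuclei with a Lepr UMI had a pooled CPM of 16.1 in Gad2 against 97.0 in those without, lower in 8 of 8 libraries (exact two-sided permutation test, p = 0.0078, the smallest it can give, adjusted p = 0.117 over 15 such tests). Gad1 was at 4.02 against 38.0 (p = 0.0156 by the same exact test, adjusted p = 0.117), and Slc17a6, the vesicular glutamate transporter of thalamic neurons, at 319 against 282 (p = 0.46). None of these differences passed the threshold after adjustment, and the comparison was chosen after the levels had been seen. Nuclei with Lepr had a median of 8635 UMIs and those without 5902.

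Glp1r lay in the same cluster in few nuclei. Neurons (5) held 31 of its 57 UMIs in 13 nuclei, of which 9 had at least 2 UMIs and the highest had 5. Male replicate 3 gave 27 of these UMIs, from 10 nuclei, male replicate 4 gave 3 and female replicate 1 gave 1. Without male replicate 3 the cluster thus held 4 Glp1r UMIs. In Neurons (1) its 12 UMIs lay in 12 nuclei, 1 in each. No nucleus of Neurons (5) had both Lepr and Glp1r, and 3 nuclei in the whole series did. Mc4r had 5 of its 6 UMIs in 4 nuclei of Neurons (5), and the 9 Ghsr UMIs lay in 9 nuclei.

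Within Neurons (4), nuclei with an Insrr UMI did not differ beyond their spread from those without in the other sensors. Insr was at a pooled CPM of 118 against 115, Igf1r at 202 against 192 and Slc2a2 at 7.45 against 7.23 (exact permutation tests, p = 0.69, 0.60 and 0.127).

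**Figure D4:**
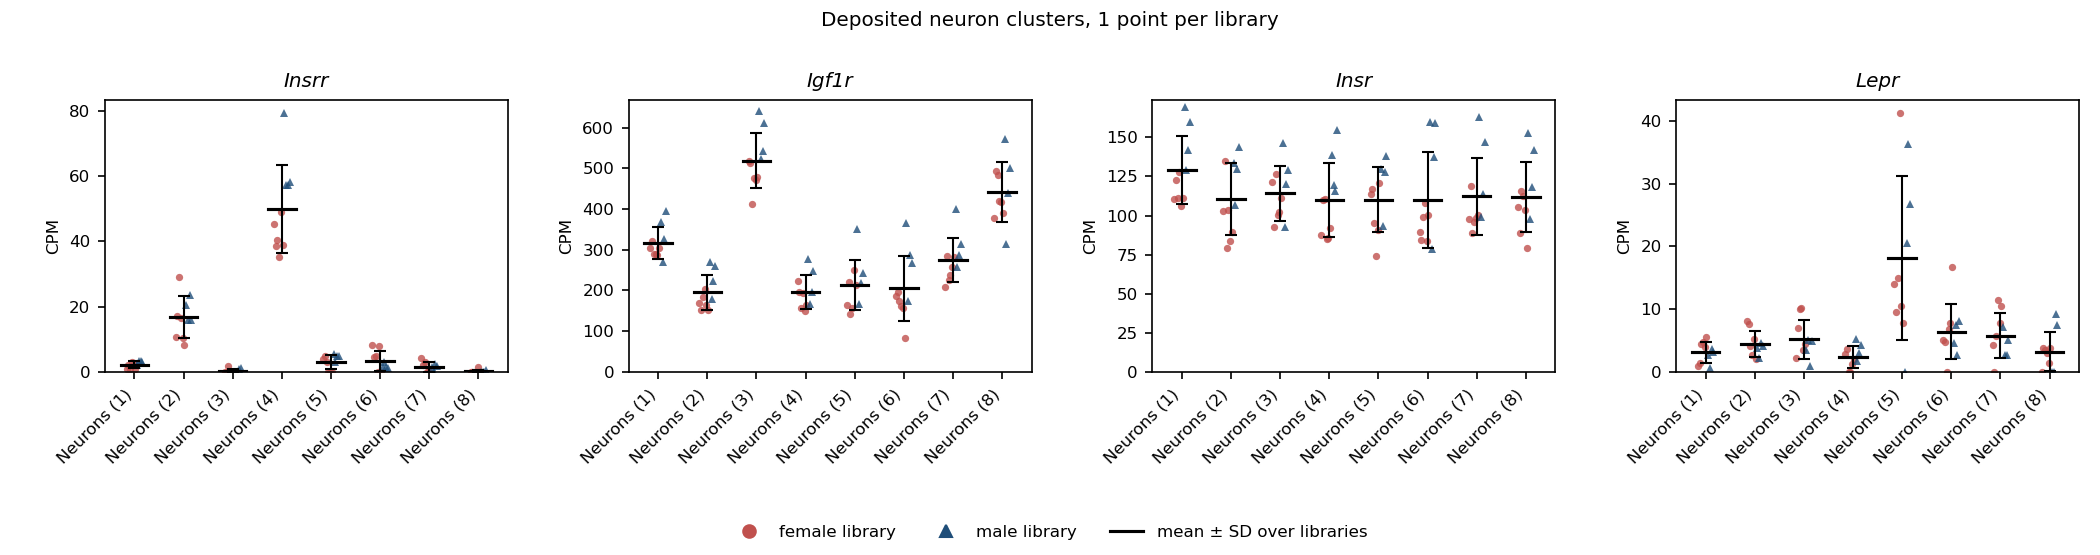
Levels (CPM, vertical axes) of Insrr, Igf1r, Insr and Lepr in the authors' clusters Neurons (1) to Neurons (8), with 1 point per library (red circles female, blue triangles male) and the mean ± SD. Insrr was highest in Neurons (4) and Neurons (2), at 49.9 and 16.8 CPM, Igf1r in Neurons (3) at 519 CPM and Lepr in Neurons (5) at 18.2 CPM, while Insr lay between 110.0 and 129 CPM.

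Female and male libraries were compared last, within each class. Most fold changes were negative, that is, lower in the female libraries: 31 of 35, including 14 of 14 for Insr, between -0.57 and -0.16. The classes share nuclei and are not independent, and depth and gene annotation differed with sex, so these comparisons are of libraries and cannot be told apart from those differences. There were 2 calls.

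Insrr in neurons was at 8.39, 10.2, 11.9, 7.50, 7.84 and 7.59 CPM in the 6 female libraries and at 17.1, 11.8, 15.9 and 13.6 CPM in the 4 male ones. In 3 of the 4 male libraries it was above every female library. The log2 fold change was -0.68 (SE 0.17, adjusted p = 0.014), beside 7.37% of all genes called lower in female neurons, and the adjusted p was 0.054 without male replicate 3. Within the C1ql3 group it was -0.30 (adjusted p = 0.47) and within the Cadps2 subset -0.21 (adjusted p = 0.81). The clusters that carry Insrr made up unequal shares of the neurons: Neurons (2) was 11.6 ± 1.65% of female and 17.01 ± 2.43% of male neurons, and Neurons (4) 11.2% and 9.84%. The part of these shares in the difference was not tested.

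Igf1r in oligodendrocytes was at 171 to 285 CPM in the female libraries (mean 231 ± 40.4) and at 317.5 to 540.5 CPM in the male ones (401 ± 97.8), with no overlap. The log2 fold change was -0.66 (SE 0.19, adjusted p = 0.031), beside 3.82% of genes called lower, and the adjusted p was 0.051 to 0.057 without female replicate 1, 4, 5 or 6 or male replicate 1. Igf1r in astrocytes missed the threshold (-0.53, adjusted p = 0.050), and Insr in neurons (-0.34, adjusted p = 0.039) lay under the limit of fold change.

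**Figure D5:**
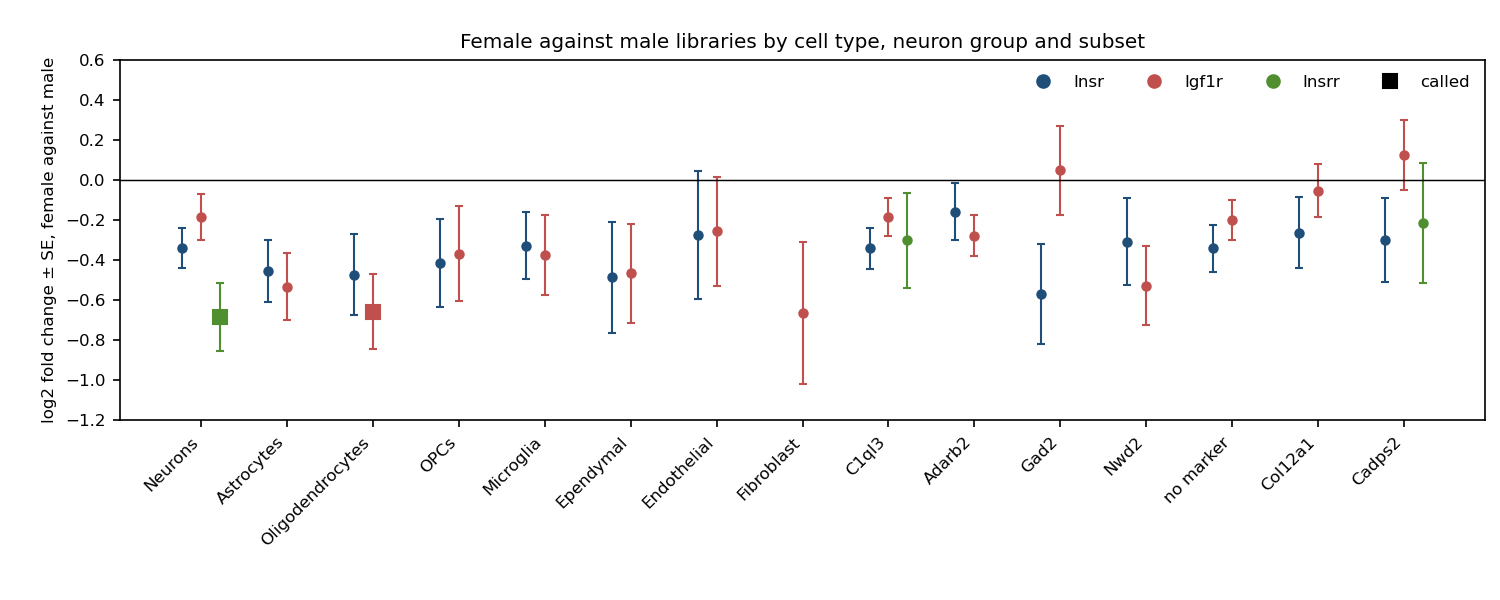
Log2 fold change of female against male libraries (vertical axis, ± SE) for Insr, Igf1r and Insrr in the classes tested (horizontal axis), with squares for the calls. The 2 calls were Insrr in neurons at -0.68 and Igf1r in oligodendrocytes at -0.66. Values below 0 were 14 of 14 for Insr, 13 of 15 for Igf1r and 3 of 3 for Insrr.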

How the data were processed

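The deposited matrix holds raw UMI counts per gene and nucleus from 10x Genomics 3' libraries. Per the labels, the authors used the mm10 genome and, in the processing notes, Cell Ranger 6.1.1. The study's methods name an earlier Cell Ranger version, and which version made which libraries is not stated. The authors' filters on nuclei were a minimum of 200 genes and a maximum of 5 percent mitochondrial UMIs, and that deposited percent was used here for 1 alternative. Cell types, neuron clusters and the sex of libraries without a sex in the title came from the deposited annotation, of which 21 further columns were not used. No doublet caller was run, since the authors removed clusters they called doublets.

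Counts of each class were added up within each library, and those of at least 10 nuclei were tested with edgeR 4.0.16 in R 4.3.3 (TMM, filterByExpr, glmQLFTest). The library was a block because classes were sums of the same library, and neurons needed over 1000 genes. CPM used edgeR's effective library sizes. A neuron joined a marker group at 2 or more UMIs of the marker and at least 0.33 of that marker's 95th percentile per 10000 UMIs, 2 times above the next marker. Neighbours in order were compared by exact sign-flip tests over libraries. Clusters without the 8 genes were made with leidenalg 0.10.2. Coordinates are from GENCODE vM21. No sequence was shown.

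The 8 genes, the pathway lists and the tests were chosen with earlier results of these data known. Of each list, at most the 4 called genes with the largest fold change in a comparison were named, and for Insr and Igf1r the 3 genes with the most similar levels. Some genes of the lists are counted but not reported here by name. The fits were tested on simulated data. Depth ranged from 5119927 to 55956635 UMIs per library. Titles call all 10 libraries biological replicates, and p-values measure the spread between libraries. Alternatives included DESeq2 1.42.0, other normalization, no filter, 1 sex alone and leaving out each library.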

Additional observations from a re-analysis of the deposited data

Results flagged for a closer look

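In the Col12a1 subset of the male libraries, male replicate 4 was flagged in Insrr, at 1.496 CPM against 0 CPM in each of the other 3. Its gap to the nearest library was the whole range (1.0, against Dixon's critical value of 0.829 for 4 libraries). It was the only one of 65 groups of libraries to be flagged, and chance marks about 5% of such groups. The value of male replicate 4 rests on 2 UMIs and the others on 0. With the others tied at 0, any value above 0 gives this ratio, so the flag does not measure how far the library stood apart.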

How the results depend on the processing

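The 7 calls among cell types became 16 without the filter on low counts and 3 in nuclei under 1% of mitochondrial UMIs. The 5 calls among neuron groups became 2, and the 3 among subsets 1, in female libraries alone, where Insrr did not pass the filter in the neuron groups. Leaving out 1 library left 0 to 3 calls among subsets, with 0 only without male replicate 3, where Insrr did not pass the filter. The 2 calls of female against male libraries became 5 without the filter, 1 under 1% of mitochondrial UMIs, 1 to 5 with 1 library left out and 0 with the replicate number as a block. These numbers do not pair the libraries: same-numbered female and male libraries had correlations of their deviations between -0.146 and 0.139, and 0 of 4 matched best with their own number. With plain UMI totals 5 neighbours differed instead of 8, of which 4 were shared. The share of Cadps2-marked nuclei with an Insrr UMI was 8.85% at 2000 UMIs, 4.54% at 1000 and 32.7% without thinning.

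Insrr in the Gad2 group lost its call, going from 3.17 to -0.024, in clusters made without the 8 genes. Lepr was too low to test in the marker groups, where its mean was lowest in the Gad2 group. With those clusters Lepr was called higher in the Gad2-led one, through which it mostly passed the filter. Insrr in neurons of female against male libraries had an adjusted p of 0.054 without male replicate 3 and 0.156 with the block. Igf1r in oligodendrocytes passed 0.05 upward, to 0.051 to 0.057, without female replicate 1, 4, 5 or 6 or male replicate 1. Insrr in the Nwd2 group lost its call without male replicate 3 (adjusted p = 0.118) or 4 (0.052), and in the Npsr1 subset without the library block (0.073) and in female libraries (0.86). Without the block, calls numbered 7 among cell types and 6 among neuron groups. Igf1r in endothelial cells kept 3.04 to 3.19 and Insr 1.59 to 1.74 with any library left out. Of the alternatives for single genes other than leaving out a library, 483 kept direction and side of the threshold. Of the rest, 19 lost the call, 15 gained one, 9 moved without a test and 1 changed sign. The cause was not tested for any of these. Glp1r, Ghsr and Mc4r are limited by 57, 9 and 6 UMIs.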
